A study of Homo sapiens with 2 samples.

Results

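The genes described here write or erase DNA methylation: the DNA methyltransferases DNMT1, DNMT3A and DNMT3B, their cofactor DNMT3L, the maintenance factor UHRF1, the dioxygenases TET1, TET2 and TET3, and the glycosylase TDG. The 9 genes were listed by function and looked up by Ensembl identifier in the count table, which holds 57736 genes. Of these, 8 were matched and 7 had at least 10 reads in both libraries together. The identifier that the annotation gives UHRF1 was not matched, so UHRF1 was not analysed here. DNMT3L had 0 parental and 0 CARM1 KO reads, which allows up to 3 reads in each library by counting error alone.

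RNA-Seq was performed on A1847 cells, a human epithelial ovarian cancer cell line. The series compares 1 library of parental control cells, wild type for CARM1, with 1 library of CARM1 KO cells, in which the arginine methyltransferase CARM1 was targeted by CRISPR with a single guide RNA delivered by a lentiviral vector. The knockout line was 1 clone, so clonal differences and loss of CARM1 cannot be told apart. Because each group has 1 library, no difference has a replicate check and no P value is given. The intervals cover counting error only.

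The libraries held 30741953 parental and 32300391 CARM1 KO reads. For the targeted gene, CARM1, the counts were 975 and 380, so its level was 2.65-fold lower in the knockout (95% interval 2.35 to 2.99). These reads measure CARM1 RNA over the whole gene and do not check the edited site. The paper examined CARM1 protein in parental and knockout cells by immunoblot. It also reports decreased levels of methylated BAF155, a CARM1 substrate, in the knockout cells. YIPF2, which overlaps CARM1 on the opposite strand, had 274 and 485 reads. Because the strand setting of the counting is not given, reads of such opposite pairs cannot be told apart. Of 10 ovarian epithelial markers, 6 had at least 10 reads, and MUC16, ESR1, CLDN4 and WT1 had at most 8 reads in either library. The summed reads of the 10 markers were 39372 in parental and 123645 in CARM1 KO cells, most of them from KRT8 and KRT18. Among these, KRT8, PAX8, EPCAM and CDH1 rose more than 3-fold in CARM1 KO cells, and KRT19 went from 45 reads to 0. Of 11 markers of leukocytes, endothelium and fibroblasts, 10 were matched and together had 373 parental and 705 CARM1 KO reads. CD3E and CDH5 were at 0 in both, LUM and DCN went from 61 and 24 reads to 1 and 0, and COL1A1 went from 131 to 537 reads. The part of this shift in marker genes in the results below was not tested.

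DNA methylation is laid down on cytosines next to guanines. DNMT3A and DNMT3B place it on unmethylated DNA, while DNMT1, guided by UHRF1, copies it to the new strand after replication. The TET enzymes oxidise 5-methylcytosine in steps that need oxygen, iron and 2-oxoglutarate, and TDG cuts out the last oxidised bases so that repair can restore plain cytosine. In tumour cells both sides of this balance are often disturbed.

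The 3 TET genes and TDG, which act in removal, were lower in CARM1 KO cells, together with DNMT3A and DNMT3B, whereas DNMT1 was the member with more reads in CARM1 KO cells. TET1 had 1754 parental and 347 CARM1 KO reads and fell 5.22-fold (95% interval 4.65 to 5.87). TET2 had 3656 parental and 963 CARM1 KO reads and fell 3.92-fold (95% interval 3.65 to 4.21). In bulk RNA, fewer cells that express a gene and less RNA per cell cannot be told apart. Both therefore passed 3-fold, the fold threshold that the study applied together with a false discovery rate. When such a rate was added here through the exact test of edgeR at an assumed biological coefficient of variation of 0.4, neither gene was called, and at 0.12 both were. Of the 7 members with reads, 2 were lower and 0 were higher past 3-fold. Over all 18563 genes with at least 10 reads, 10.5% were lower and 11.5% were higher past this fold.

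**Figure D1:**
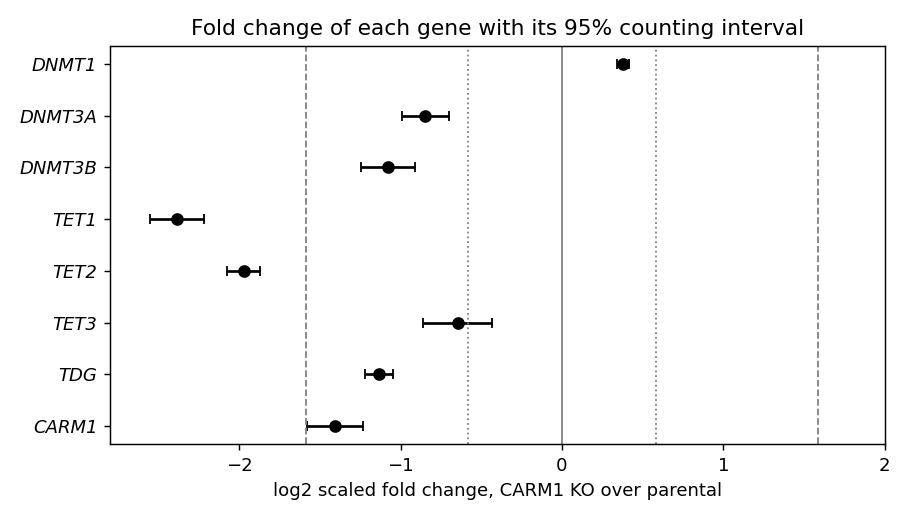
Points are the log2 scaled fold change of CARM1 KO over parental for the 7 members with reads and for CARM1, with bars for the 95% counting interval, 1 library per group. Dashed lines mark 3-fold and dotted lines 1.5-fold; TET1 and TET2 lie beyond the left dashed line and DNMT1 is the point right of 0.

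A smaller threshold, a fold change above 1.5 with an interval that leaves out 1, was passed by 6 of the 7 members, all lower in CARM1 KO cells, and by 0 members in the other direction. Over all genes tested, 25.1% were lower and 25.2% were higher past it. Since genes with few reads reach large folds by counting error, the same shares were taken over the 9217 protein-coding genes with at least 500 reads, a depth that the 7 members exceed and that was chosen after their reads were seen. There, 5.22% were lower and 6.75% were higher past 3-fold, and 21.7% were lower and 22.0% were higher past 1.5-fold. The median log2 fold change was -1.08 for the 7 members, -0.03 for all genes tested and -0.02 for the protein-coding genes of that depth.

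The TET genes differed in how far they were lower. TET1 lies at 70320094 to 70454244 of chromosome 10 (GRCh37, as for the other members, plus strand), and its protein binds CpG-rich DNA through its own CXXC domain. Of the protein-coding genes with at least 500 reads, 3.09% had a lower log2 fold change than TET1. TET2 lies at 106067032 to 106200973 of chromosome 4 (plus strand) and is a gene often mutated in myeloid leukaemia, and 3.71% of those genes lay below it. TET3 lies at 74212037 to 74335303 of chromosome 2 (plus strand) and is the form that acts on the paternal genome in the zygote. It had 453 parental and 299 CARM1 KO reads, 1.56-fold lower (95% interval 1.35 to 1.82), and 19.8% of those genes lay below it.

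Because a ratio of reads between genes within a library does not depend on the scaling, the TET genes were also compared with each other. The 3 TET genes together had 5863 parental and 1609 CARM1 KO reads. After scaling, which this fold does depend on, their summed level was 3.76-fold lower (95% interval 3.56 to 3.98). TET3 took 7.73% of the TET reads in parental (95% interval 7.06 to 8.44) and 18.6% in CARM1 KO cells (95% interval 16.7 to 20.6). TET1 took 29.9% in parental (95% interval 28.7 to 31.1) and 21.6% in CARM1 KO cells (95% interval 19.6 to 23.7). The intervals of TET1 and of TET3 did not overlap between the libraries. TET2 held the largest share of the TET reads in both libraries, 62.4% in parental (95% interval 61.1 to 63.6) and 59.9% in CARM1 KO cells (95% interval 57.4 to 62.3), and its intervals overlapped.

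**Figure D2:**
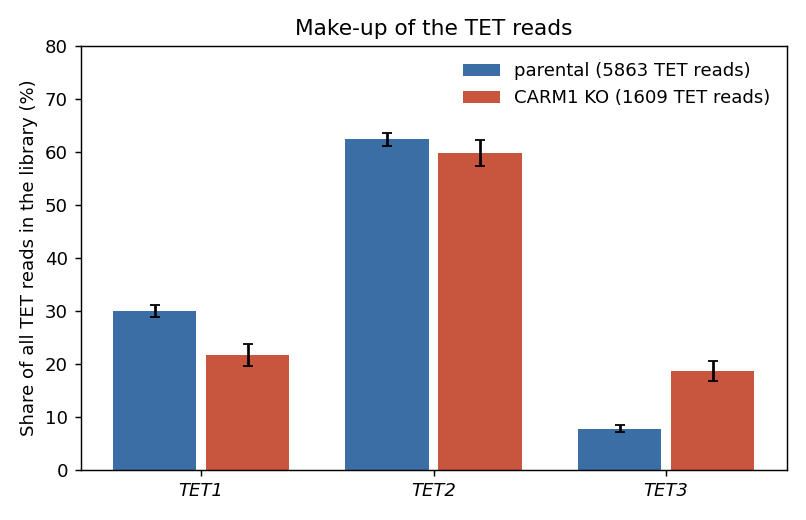
Bars give the share of all TET reads in a library (%) that came from TET1, TET2 or TET3, with exact 95% binomial intervals, in parental and CARM1 KO cells. The TET3 bar is 7.73% in parental and 18.6% in CARM1 KO cells.

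Put as a ratio of changes, the fold decrease of TET1 was 3.34 times that of TET3 (95% interval 2.76 to 4.03) and 1.33 times that of TET2 (95% interval 1.16 to 1.53). That of TET2 was 2.51 times that of TET3 (95% interval 2.12 to 2.96) and 1.79 times that of TDG (95% interval 1.63 to 1.96). In these comparisons the difference was larger than counting error. Of 7 pairs compared, DNMT3A against TET3, with a ratio of 1.15 (95% interval 0.96 to 1.38), and TDG against DNMT3B, with 1.04 (95% interval 0.91 to 1.18), had intervals that held 1. The pairs include members next to each other in the order of fall, and were not fixed before the values were seen. The intervals are not adjusted for the number of pairs.

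TDG, at 104359600 to 104382652 of chromosome 12 (plus strand), removes thymine from mismatches with guanine as well as the oxidised bases left by the TET enzymes. It had 3348 parental and 1577 CARM1 KO reads, 2.19-fold lower (95% interval 2.06 to 2.33). Of the protein-coding genes with at least 500 reads, 8.91% had a lower log2 fold change. TDG was thus lower past 1.5-fold and not past 3-fold.

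Of the de novo methyltransferases, DNMT3B, at 31350191 to 31397165 of chromosome 20 (plus strand), had 904 parental and 442 CARM1 KO reads, 2.11-fold lower (95% interval 1.88 to 2.37). DNMT3B methylates centromeric repeats, and its inherited loss causes the ICF syndrome. DNMT3A, at 25450724 to 25565459 of chromosome 2 (minus strand), had 1063 parental and 610 CARM1 KO reads, 1.80-fold lower (95% interval 1.63 to 1.99). DNMT3A sets maternal imprints in the germ line, and it works there with DNMT3L, a relative without catalytic activity. The fold decrease of DNMT3B was 1.17 times that of DNMT3A, with a 95% interval that ended close to equality at 1.01 and reached 1.37. DNMT3B made up 46.0% of the reads of this pair in parental (95% interval 43.7 to 48.2) and 42.0% in CARM1 KO cells (95% interval 39.0 to 45.1), so these intervals overlapped.

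DNMT1, the maintenance enzyme, lies at 10244018 to 10341962 of chromosome 19 (minus strand). It had 9373 parental and 12588 CARM1 KO reads, a 1.30-fold higher level (95% interval 1.27 to 1.34). This was under both thresholds, and 29.4% of the protein-coding genes with at least 500 reads had a higher log2 fold change. DNMT1 held most methyltransferase reads, so the summed reads of DNMT1, DNMT3A and DNMT3B were 11340 in parental and 13640 in CARM1 KO cells, a 1.16-fold higher level (95% interval 1.14 to 1.19), while those of DNMT3A and DNMT3B alone were 1.93-fold lower (95% interval 1.79 to 2.08).

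The members spanned a wide range of levels, given here as reads per kilobase of merged exons after scaling to library size (RPKM). In parental cells the order was TDG at 22.1, DNMT1 at 19.7, TET2 at 7.16, TET1 at 5.88, DNMT3B at 4.24, DNMT3A at 2.49 and TET3 at 1.13. Each of these levels lay above the next by more than its counting interval. In CARM1 KO cells the order was DNMT1 at 25.6, TDG at 10.1, DNMT3B at 2.01, TET2 at 1.83, DNMT3A at 1.38, TET1 at 1.13 and TET3 at 0.721. There the intervals of DNMT3B and TET2 overlapped and the other neighbours in the order were separate. TET1 was thus above both de novo enzymes in parental cells and below both in CARM1 KO cells, and TET2 went from above to level with DNMT3B. With the length of the longest coding transcript in place of merged exons, DNMT1 came before TDG and DNMT3B before TET1 in parental cells, and the order in CARM1 KO cells was as given.

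**Figure D3:**
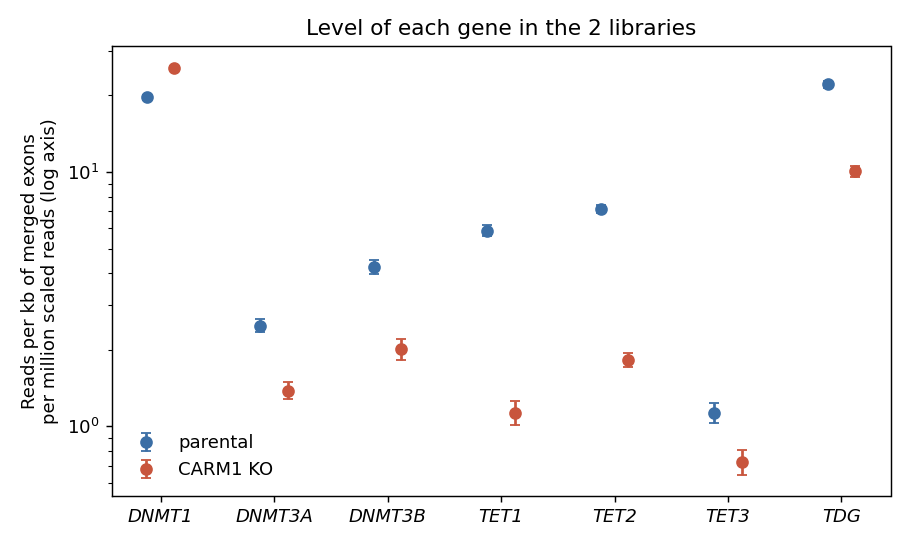
The y axis (log scale) gives RPKM over merged exons for each member in parental and CARM1 KO cells, with exact 95% Poisson intervals, 1 library each. The CARM1 KO point is below the parental point for each gene except DNMT1, and the TET1 points are at 5.88 and 1.13.

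Few reads came from genes that overlap the members or from pseudogenes named after them. Similar copies with other names were not searched for. Of 9 annotated genes that overlap a member, 2 had at least 10 reads. S1PR2, a sphingosine phosphate receptor gene that overlaps DNMT1 on the same strand, had 56 parental and 24 CARM1 KO reads. COX20P1, a pseudogene within TET1, had 11 and 3 reads. TET2-AS1, antisense to TET2, had 0 reads in both libraries. Of 3 pseudogenes named after a member, TET1P1 had 18 parental and 4 CARM1 KO reads, and TDGP1 and DNMT3AP1 had 0 in both. RSEM divides reads between similar copies, and the reads of TET1P1 and TET1 are therefore uncertain to that extent.

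To show the sequence at the starts of the members that fell past 3-fold, and of DNMT1 as the member with more reads, the start windows of RefSeq (GRCh38.p14, 250 bases before to 50 bases after a start) were read. Such windows were matched for 8 of the 9 listed genes, DNMT3L being the other. Where a gene has several starts, the window with the most CpG dinucleotides is shown. The windows are chr10:68600224-68600523 on the plus strand for TET1, chr4:105146626-105146925 on the plus strand for TET2 and chr19:10194904-10195203 on the minus strand for DNMT1. For TET1 and TET2 the window shown is not that of the most upstream start, which is at chr10:68560087-68560386 for TET1 and chr4:105145625-105145924 for TET2. Capitals mark the CpG dinucleotides, the sites that these enzymes act on.
TET1: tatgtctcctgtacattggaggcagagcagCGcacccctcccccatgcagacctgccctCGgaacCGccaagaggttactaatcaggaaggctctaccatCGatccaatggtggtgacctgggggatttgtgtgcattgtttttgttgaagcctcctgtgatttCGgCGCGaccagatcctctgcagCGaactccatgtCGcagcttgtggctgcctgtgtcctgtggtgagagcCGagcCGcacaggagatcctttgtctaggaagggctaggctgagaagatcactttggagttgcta
TET2: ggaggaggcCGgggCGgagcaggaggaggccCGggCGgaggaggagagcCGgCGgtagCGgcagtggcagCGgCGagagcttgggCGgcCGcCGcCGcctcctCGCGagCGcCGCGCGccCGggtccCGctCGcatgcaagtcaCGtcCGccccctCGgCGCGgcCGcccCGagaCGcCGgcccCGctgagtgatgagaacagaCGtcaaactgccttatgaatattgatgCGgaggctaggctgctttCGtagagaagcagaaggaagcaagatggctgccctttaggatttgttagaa
DNMT1: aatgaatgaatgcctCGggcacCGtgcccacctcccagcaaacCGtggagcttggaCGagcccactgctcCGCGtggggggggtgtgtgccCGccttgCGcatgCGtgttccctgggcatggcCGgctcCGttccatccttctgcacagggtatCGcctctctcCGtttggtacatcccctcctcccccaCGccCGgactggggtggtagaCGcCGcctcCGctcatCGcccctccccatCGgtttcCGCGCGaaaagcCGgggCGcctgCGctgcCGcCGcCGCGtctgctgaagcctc

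The windows shown for the genes that fell past 3-fold differed in CpG content. The TET1 window held 11 CpG and the TET2 window 35, while DNMT1 held 30 and the median over 35116 windows of all genes was 14. Of all windows, 45.3% had fewer CpG than that of TET1, 85.9% fewer than that of TET2 and 77.6% fewer than that of DNMT1. Over the 8 members with a window, the richest window of each gene held from 3 CpG, in DNMT3B, to 46, in DNMT3A and UHRF1. The DNMT3B window was the only one matched for that gene, and whether it lies at the main start was not checked. The GC box, searched as GGGCGG on both strands, had 5 matches in the TET2 window and 0 in those of TET1 and DNMT1, and 45.0% of all windows held it. The CCAAT box, searched as CCAAT on both strands, had 2 matches in the TET1 window and 0 in the others shown, and 34.6% of all windows held it. A motif of NRF1, searched as GCATGCGC on both strands, was matched in the DNMT1 window and in 3.05% of all windows, and a motif of E2F, searched as GGCGGGAA on both strands, was in 0 of the 8 richest windows and in 3.16% of all. Both the CpG and the motif counts depend on the start chosen. At the most upstream starts, TET1 had 10 CpG, 0 CCAAT and 0 GC boxes, and TET2 had 13 CpG, 0 CCAAT and 1 GC box. These matches describe letters in the windows, and only the exact strings given were searched, so other forms of these motifs were not counted. Methylation and factor binding were not measured in these libraries.

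The expressed genes around each member were compared next, taking the 5 nearest protein-coding genes with at least 50 reads on each side. A member and these genes spanned from 462298 bases around DNMT1 to 3447710 bases around TET2, so some neighbours are distant. Those past 3-fold are named after their values were seen. Around TET2, 9 of 10 neighbours had a log2 fold change below 0, with a median of -0.78. The median over all genes tested was -0.03, so a value below 0 is common. CXXC4, the next such gene on the one side, lies 651 kb from TET2 and encodes IDAX, a CXXC protein known to bind TET2. It had 3189 parental and 14 CARM1 KO reads and fell 235-fold (95% interval 140 to 431). PPA2, a mitochondrial pyrophosphatase gene on the other side, had 6021 parental and 1836 CARM1 KO reads, 3.39-fold lower. The neighbours of DNMT3A were also mostly lower, 9 of 10, with a median of -0.48, and EFR3B beside it went from 339 to 88 reads.

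The median log2 fold change of the neighbours was 0.26 around TET1, 0.28 around DNMT3B, 0.21 around TDG and -0.03 around TET3, each above the member's own value of -2.38, -1.08, -1.13 and -0.64. Neighbours past 3-fold lay in both directions. STOX1, the second neighbour of TET1, had 705 parental and 132 CARM1 KO reads. GLT8D2, 113 bases from TDG, had 1531 and 57 reads, and ACTG2, a smooth muscle actin gene near TET3, had 834 and 3 reads. Around TDG 2 neighbours rose past 3-fold, HCFC2 from 564 to 1895 reads, 3.25-fold higher, and EID3 from 106 to 440 reads, 4.02-fold higher. Beside DNMT3L, which had no reads, the ion channel gene TRPM2 rose from 251 to 1108 reads, 4.27-fold higher. DNMT1 lies 640 kb from CARM1 on chromosome 19. The neighbours of DNMT1 had a median of 0.39, close to its own value of 0.38. They ran from -1.20 to 2.61, with 3 of 10 below 0. Among them ICAM1 rose from 164 to 1043 reads, and S1PR2 went from 56 to 24.

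**Figure D4:**
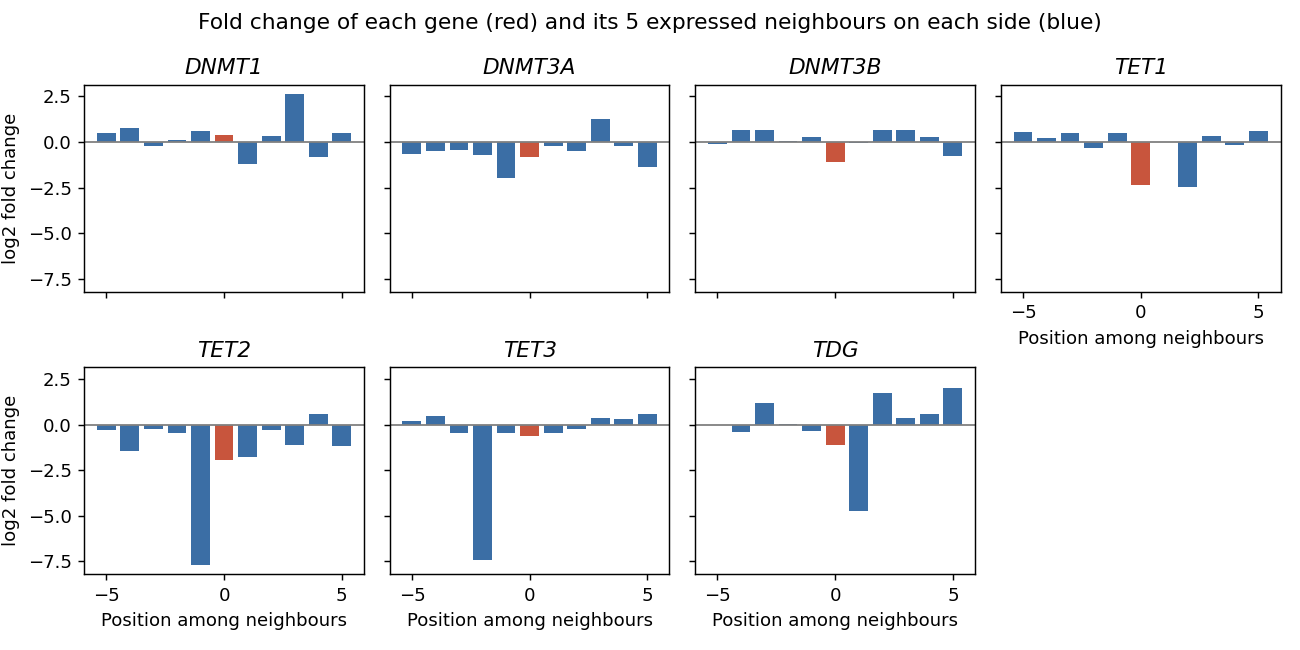
Each panel shows the log2 fold change (CARM1 KO over parental, prior count of 2) of a member (red, position 0) and of its 5 nearest expressed protein-coding genes on each side (blue). Around TET2 9 of 10 blue bars lie below 0, the lowest being CXXC4 at -7.68, whereas 4 of 10 do so around TET1.

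The largest fall of any 1 gene in the related lists, that of CXXC4, was among the TET cofactors and modulators. The lowest list median, -0.41, was that of the maintenance partners and methyl donor genes. Of 11 TET cofactors and modulators, 10 had at least 10 reads, and 2 were lower and 0 higher past 3-fold, with a median log2 fold change of -0.33. One is CXXC4. The other is IDH1, the cytosolic isocitrate dehydrogenase that makes the TET cosubstrate 2-oxoglutarate, which had 2632 parental and 520 CARM1 KO reads and fell 5.23-fold (95% interval 4.76 to 5.75). IDH2, its mitochondrial counterpart, had 843 parental and 1164 CARM1 KO reads, 1.34-fold higher (95% interval 1.22 to 1.46). IDH2 was chosen after its values were seen. Past 1.5-fold, 3 of the 10 were lower and 2 were higher. For this and the lists below, the shares over all genes tested were 10.5% lower and 11.5% higher past 3-fold. Past 1.5-fold they were 25.1% lower and 25.2% higher.

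None of the 13 maintenance partners and methyl donor genes passed 3-fold in either direction; past 1.5-fold 3 were lower and 1 was higher, and their median log2 fold change was -0.41. HELLS, a chromatin remodeller needed for normal DNA methylation, went from 8986 to 4237 reads, 2.19-fold lower (95% interval 2.11 to 2.27). UHRF2, the paralog of UHRF1, had 1963 parental and 1528 CARM1 KO reads, 1.33-fold lower (95% interval 1.24 to 1.42), and is named because UHRF1 was not analysed.

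Among 12 factors that recruit the de novo enzymes or lay down the histone marks they read, 11 had at least 10 reads and 0 passed 3-fold, with a median of -0.10. Past 1.5-fold 3 were lower and 0 higher. The furthest from 0 were CBX5, which encodes the heterochromatin protein HP1 alpha, from 10837 to 4396 reads, 2.55-fold lower (95% interval 2.46 to 2.64), and SETDB1, a histone H3 lysine 9 methyltransferase, from 1801 to 927 reads, 2.01-fold lower (95% interval 1.85 to 2.17). Of the 8 genes listed as methyl-CpG readers or members of their families, 0 passed 3-fold. Past 1.5-fold, 2 were higher and 1 was lower, and the median was -0.14. ZBTB38 had 1824 parental and 3759 CARM1 KO reads, 1.996-fold higher (95% interval 1.89 to 2.11). MBD3, a subunit of the NuRD complex, went from 777 to 505 reads, 1.59-fold lower (95% interval 1.42 to 1.78).

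The 11 genes listed for base excision repair downstream of the TET enzymes and TDG include stress-induced GADD45 genes, and they moved both ways. Past 3-fold 1 of the 11 was higher, GADD45B, beside 11.5% of all genes tested. Past 1.5-fold 4 were higher and 3 lower, beside 25.2% and 25.1% of all genes tested. The median was -0.07. GADD45B, a stress-induced gene linked to active demethylation, rose 3.58-fold (95% interval 3.20 to 4.02), from 390 to 1443 reads. DNMT1 is a gene of dividing cells, so 18 genes of S phase and proliferation were set beside it. Of these, 0 passed 3-fold, and 1 was higher and 1 was lower past 1.5-fold. Their median log2 fold change was -0.01 against 0.38 for DNMT1. The 18 genes ranged from -0.77 to 0.73, a range that holds the DNMT1 value. E2F1, a transcription factor of the G1 to S transition, went from 342 to 587 reads, and CCNB1, the mitotic cyclin B1, from 16026 to 9729 reads.

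**Figure D5:**
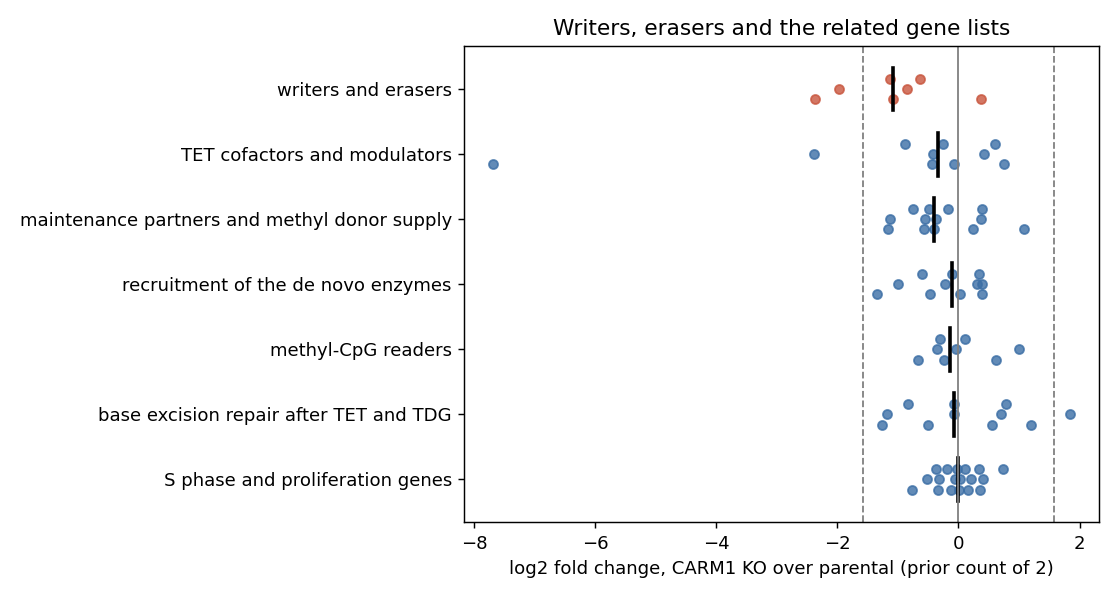
Each point is a gene with at least 10 reads, placed by its log2 fold change (CARM1 KO over parental, prior count of 2). Black bars mark the median of each list and dashed lines 3-fold; the writers and erasers have a median of -1.08 and the related lists with more than 1 gene tested have medians between -0.41 and -0.01.

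Germline genes that are known to be silenced by promoter methylation in other tissues were also read. Of 10 such genes, 4 had 0 reads in both libraries and 1, SYCP3 of the meiotic chromosome axis, had at least 10 reads. SYCP3 had 8 parental and 9 CARM1 KO reads. The 10 genes together had 11 parental and 18 CARM1 KO reads, and the highest CARM1 KO count was the 9 of SYCP3. A rise to high read counts was thus not seen, while a small difference cannot be told from counting error at these counts.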

How the data were processed

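RNA from 1 library of parental and 1 library of CARM1 KO A1847 cells was analysed. The authors used bowtie2 against hg19 and RSEM for Ensembl genes (version 1.2.3 in the submitters' processing notes, another version in the methods), and deposited whole-number read counts without normalization. The Ensembl release and the strand setting are not given in the sources used here. RSEM divides reads between similar genes.

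Identifiers were matched to the GENCODE annotation of GRCh37 (55501 of 57736). Counts were scaled by TMM in edgeR 4.0.16 (R 4.3.3) over the 18563 genes whose libraries summed to 10 reads or more. Log2 fold changes used a prior count of 2, and printed fold changes none. Exact 95% binomial (Clopper-Pearson) intervals of fold changes and shares, and Poisson intervals of levels, were computed with scipy 1.17.1. A quasi-likelihood fit in edgeR needs replicates and was not made, so a gene was called where its fold change passed 3. The steps were checked on simulated counts.

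Named genes are the members, CARM1, genes of each list past 3-fold or otherwise the 2 furthest from 0, and overlapping genes with at least 10 reads. The result of 1 gene that meets this rule is not reported here. Genes of like pattern were not searched for, since 2 libraries define 1 fold change. The members and lists were chosen with earlier results of these data known. Alternatives were other scalings with DESeq2 1.42.0 or edgeR, other minimums of reads, another prior count, another gene length and an FDR from edgeR's exact test.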

Additional observations from a re-analysis of the deposited data

How the results depend on the processing

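Under library size only, DESeq2 size factors, upper-quartile scaling, minimums of 1 or 50 reads and a smaller prior count, the log2 fold changes of the 7 members kept their sign in 42 of 42 comparisons and moved by at most 0.036. TET1 and TET2 passed 3-fold, and 6 members were lower past 1.5-fold, in each of these scalings and minimums. With edgeR's exact test at an FDR under 0.05 added to the fold, 2 members were lower at a set biological coefficient of variation of 0.12 and 0 at 0.4, where 532 genes in all were higher and 894 lower. Fewer calls follow from the wider spread that this test assumes. With a minimum of 50 reads, 1211 genes in all were lower past 3-fold, since fewer genes were tested. Per length in place of reads, DNMT3B made up 63.0% of the pair with DNMT3A in parental and 59.2% in CARM1 KO cells, and of the TET total TET1 made up 41.5% and 30.7% and TET2 50.5% and 49.7%. The share of TET3 per length was 7.97% and 19.6%. No paired analysis was possible because parental and CARM1 KO cells have 1 library each, which also means that leaving one out gives no comparison. The shares over protein-coding genes with at least 500 reads were an alternative chosen after seeing the data.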

Other observations

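Chosen after the values were seen, the reads of the TET genes were set against those of DNMT1, the most read member of the list in both libraries. Of the 15236 reads of TET1, TET2, TET3 and DNMT1 in parental cells, 38.5% were TET reads (95% interval 37.7 to 39.3). In CARM1 KO cells it was 11.3% of 14197 reads (95% interval 10.8 to 11.9). The intervals cover counting error only, and the share does not depend on the scaling between the libraries.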
